A study of Mus musculus with 8 samples.

Results

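The genes described here pattern the embryonic forebrain: the transcription factors that set cortical area and hem identity, and the WNT, BMP, FGF and SHH signals with their targets and inhibitors. The 44 genes were taken from a list of names and not by a rule on measured values. Earlier results of these data were known when they were chosen. All 44 were found in both count tables, among 23420 genes listed at E11.5 and 78298 listed at E12.5. Read counts came from dissected cortices of Mboat7 heterozygous (+/-) and KO (-/-) mouse embryos at E11.5 and E12.5, with 2 cortices per genotype at each stage and 8 in all. Mboat7 encodes LPLAT11, an enzyme that remodels the membrane lipid phosphatidylinositol, and the comparison asks whether its loss goes with altered patterning genes in the early cortex. The KO is global, the line was kept on a C57BL/6N background, and embryos were taken without regard to sex. The controls carry 1 mutant allele themselves, and no wild-type cortex was analysed here. Each stage was sequenced by its own provider, so that stage and provider cannot be told apart.

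The dorsal forebrain is patterned by signals from its borders. The cortical hem, at its medial edge, makes WNTs and BMPs, and the roof plate beside it forms the choroid plexus. The anterior neural ridge makes FGF8 and FGF17, which induce the ETS factors Etv1, Etv4 and Etv5 and the feedback inhibitors Spry1 and Spry2. SHH comes from the ventral side, where it relieves the block that its receptor Ptch1 places on the pathway and induces Gli1 and Ptch1, whereas Gli3 is needed, mainly as a repressor, for the dorsal telencephalon and the hem. The factors Emx1, Emx2, Lhx2, Nr2f1, Sp8, Dmrta2 and Dmrt3 are graded or restricted in the dorsal telencephalon and help to set cortical identity, size or area. Irx3, Barhl2 and Tcf7l2 mark more caudal, diencephalic tissue.

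The 3 promoters below belong to the genes with the smallest p at E11.5 among those with exactly 1 start in the RefSeq promoter table of GRCm38.p6, and they show the DNA before the start of genes that results below turn on. Each sequence is the 250 bases before the start, with every CpG in capitals. That of Dmrta2 lies at chr4:109977775-109978024 (+ strand), that of Ptch1 at chr13:63565736-63565985 (- strand) and that of Emx1 at chr6:85187681-85187930 (+ strand).
Dmrta2: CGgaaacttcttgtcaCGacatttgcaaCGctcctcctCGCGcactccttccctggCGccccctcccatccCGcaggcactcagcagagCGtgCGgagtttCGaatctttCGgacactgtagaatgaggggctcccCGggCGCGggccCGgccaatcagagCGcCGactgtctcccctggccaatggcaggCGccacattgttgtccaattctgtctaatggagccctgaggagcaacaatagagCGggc
Ptch1: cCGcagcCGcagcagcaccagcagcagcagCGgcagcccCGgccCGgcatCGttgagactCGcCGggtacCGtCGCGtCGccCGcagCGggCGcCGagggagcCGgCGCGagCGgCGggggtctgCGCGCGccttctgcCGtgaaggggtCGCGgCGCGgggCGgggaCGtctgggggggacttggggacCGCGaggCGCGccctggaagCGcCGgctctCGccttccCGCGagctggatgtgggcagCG
Emx1: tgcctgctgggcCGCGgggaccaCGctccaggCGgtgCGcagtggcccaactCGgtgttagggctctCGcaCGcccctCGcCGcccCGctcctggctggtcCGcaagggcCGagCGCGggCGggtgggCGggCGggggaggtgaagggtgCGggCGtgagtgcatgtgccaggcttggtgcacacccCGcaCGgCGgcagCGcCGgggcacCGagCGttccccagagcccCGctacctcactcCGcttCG
All 3 are rich in CpG, with 19 in Dmrta2 (GC content 61.6%), 41 in Ptch1 (78.4%) and 30 in Emx1 (75.6%). The table held 44 promoters of 31 of the genes, with a median of 16 CpG and a median GC content of 63.4%, against 6 CpG and 52.4% over all 32851 promoters. The GLI core CCACCCA, searched on both strands, was found in the windows of Etv1, Etv5 and Lhx2 and in 8.11% of all promoters. The LEF/TCF core CTTTGA was found in those of Etv1, Lef1, Nr2f2 and Sp8 (13.8% of all promoters), the ETS core CCGGAAG in that of Bmp4 (6.91%) and the homeodomain core TAATTA in those of Msx2, Otx2, Sp8 and Wnt8b (4.84%). The 3 windows printed above hold none of these letters, and a match or its absence is a description of the window alone.

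Total counts lay between 21843330 and 28189771 for the E11.5 cortices and between 20799311 and 23330432 for those of E12.5. Levels are given as CPM, the count scaled to the library size, and a count of 3 corresponds to 0.106 to 0.144 CPM. The targeted gene was not depleted in the KO cortices. Mboat7 was at 32.3 and 33.1 CPM in Mboat7+/- against 39.0 and 34.8 CPM in Mboat7-/- cortices at E11.5 (edgeR adjusted p = 0.501), and at 35.5 and 36.2 against 31.7 and 32.2 CPM at E12.5 (0.954). It was thus higher without overlap at E11.5 and lower without overlap at E12.5. The direction of every comparison therefore rests on the labels, and whether these counts come from the mutant transcript cannot be read from counts per gene. Xist, the X-inactivation transcript of female cells, had 17875 counts in the E11.5 Mboat7+/- replicate 1 and at most 2 in any other cortex, so 1 female cortex stands among the E11.5 controls. The dorsal telencephalon markers, a check of the labelled tissue, summed to 1127 to 1501 CPM at E11.5 and to 1468 to 1550 CPM at E12.5. Mesenchyme and meninges markers were also abundant in these samples, at 1826 to 2317 CPM and 576 to 777 CPM.

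Many of the patterning genes were more abundant at E11.5. In 27 of the 44 genes every E11.5 cortex lay above every E12.5 cortex, in 7 (Emx1, Lhx2, Sp8, Wnt7a, Ttr, Etv1 and Etv5) every E12.5 cortex lay above every E11.5 cortex, and in 10 the stages overlapped. Over the 13642 genes compared, 42.3% were higher at E11.5 in this way and 19.3% at E12.5. Mean CPM at E11.5 was 25.1-fold that at E12.5 for Irx3, 9.22-fold for Gli1, 6.75-fold for Msx2, 6.58-fold for Fgf8, 6.20-fold for Bmp4 and 5.99-fold for Tcf7l2. The opposite order held for Ttr, the thyroxine carrier made by choroid plexus, at 25.8-fold more at E12.5, and for Etv1, at 2.42-fold. These are levels side by side, with no test, since the provider and the gene annotation changed with the stage. Diencephalon and midbrain markers summed to 138 to 160 CPM at E11.5 and to 48.7 to 52.2 CPM at E12.5. Surface ectoderm markers summed to 89.4 to 135 CPM and to 9.96 to 11.6 CPM. The part of the dissected tissue in the levels of the patterning genes was not tested. Per kilobase of exon, the highest mean levels at E11.5 were those of Lhx2 (95.0 CPM per kb), the secreted WNT inhibitor Sfrp1 (94.3 CPM per kb) and Nr2f1 (59.8 CPM per kb), and the lowest was that of Etv1 (1.25 CPM per kb). At E12.5 Ttr (127 CPM per kb), Lhx2 (121 CPM per kb) and Sfrp1 (90.9 CPM per kb) led, and Irx3 was lowest (0.691 CPM per kb).

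**Figure D1:**
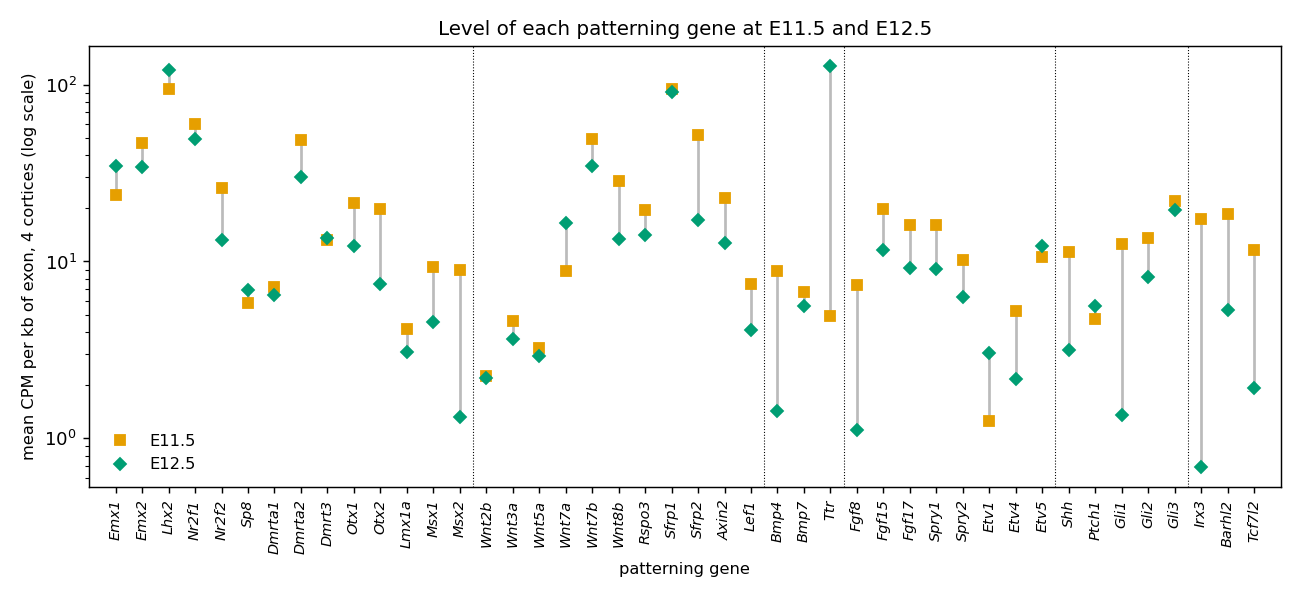
Mean CPM per kilobase of exon (log axis) over the 4 cortices of each stage, with E11.5 as squares and E12.5 as diamonds, for each patterning gene ordered by role (dotted lines part the roles). Ttr, at 127 CPM per kb at E12.5, and Irx3, at 0.691 CPM per kb, show the widest gaps between stages.

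At E11.5, the clearest differences between genotypes were lower cortical factors and higher SHH pathway genes in Mboat7-/- cortices, but no gene of the 44 passed an FDR of 0.05 (edgeR quasi-likelihood test, Benjamini-Hochberg adjustment over all genes). The same was true of all 14935 genes tested (0.0% called). Of the 44 genes, 13 had a log2 fold change above 0 and 31 below, with a median of -0.05, against a median of -0.01 and 51.1% below 0 over all genes. An unadjusted p under 0.05 was reached by 3 genes higher and 5 genes lower in Mboat7-/- cortices. That is 18.2% of the 44 genes, against 14.1% of all genes (8.03% higher, 6.07% lower), so the count is close to the background. Both Mboat7-/- cortices lay above both Mboat7+/- cortices for 4 genes and below them for 10, where the background was 23.1% and 23.3% of all genes. The smallest adjusted p was 0.174 (Ptch1 and Dmrta2, edgeR). Only Ttr reached an absolute log2 fold change of 1.

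**Figure D2:**
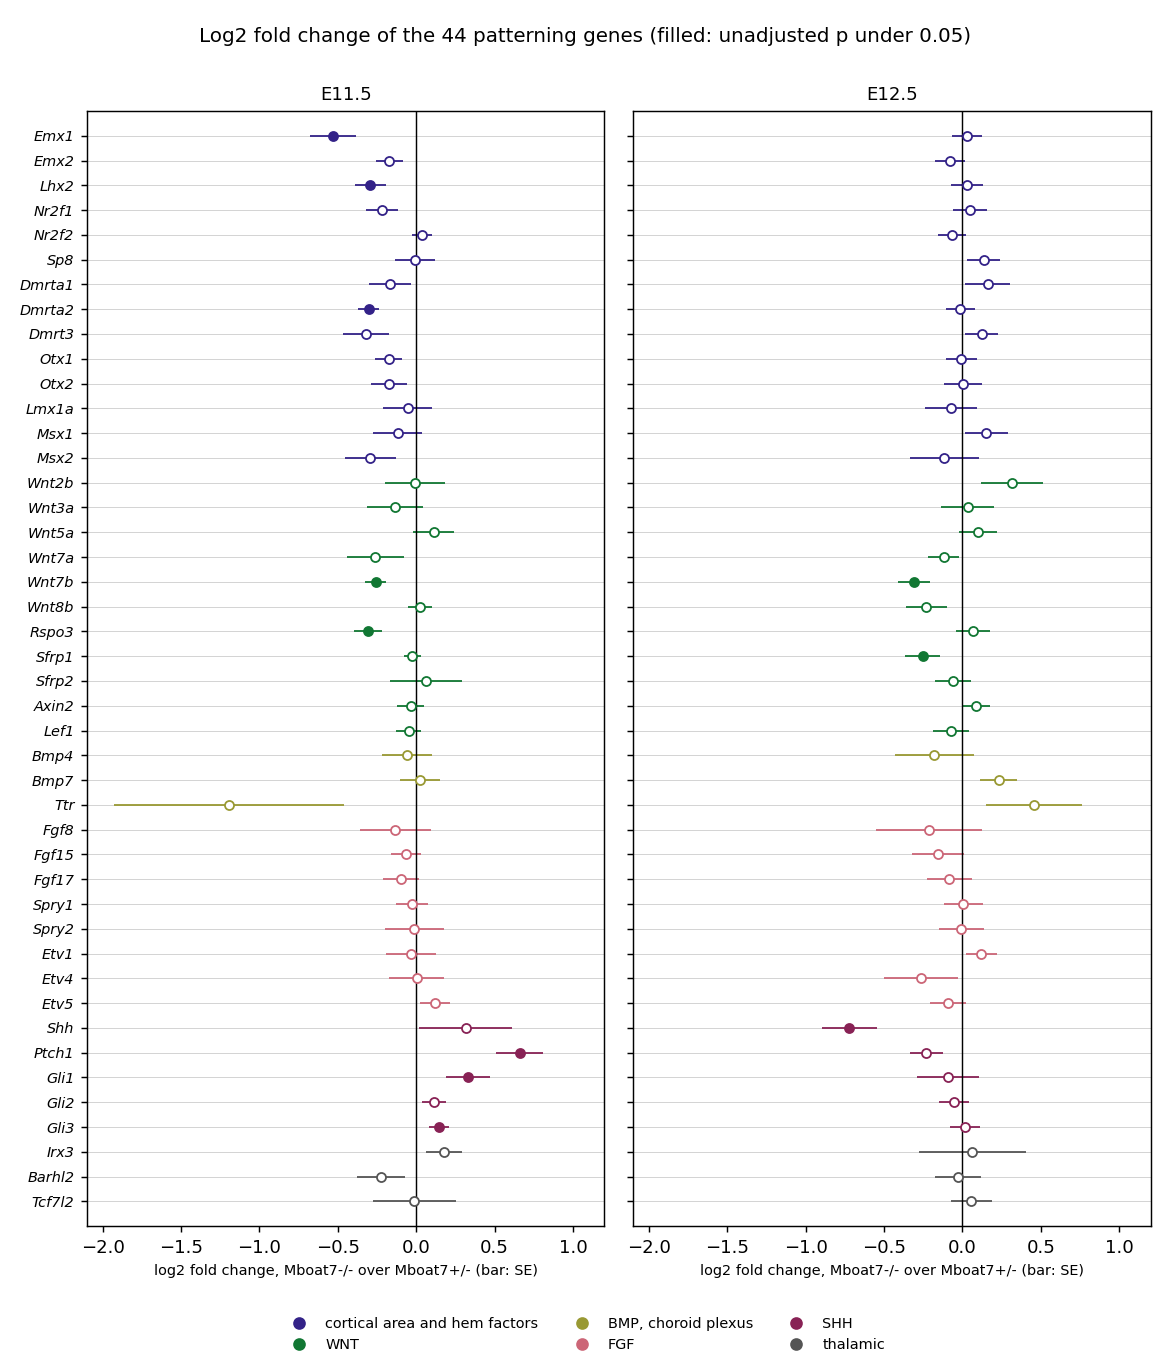
Log2 fold change of each patterning gene, Mboat7-/- over Mboat7+/-, with the SE as a bar, at E11.5 (left) and E12.5 (right); filled points have an unadjusted p under 0.05. The cortical factors sit mostly left of 0 and the SHH pathway right of 0 at E11.5, both fall on both sides of 0 at E12.5, and no point passed an FDR of 0.05.

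Of the 14 cortical area and hem factors, 13 had a log2 fold change below 0 at E11.5 (51.1% of all genes), with a median of -0.17. The 3 with an unadjusted p under 0.05 were Emx1, Lhx2 and Dmrta2, all lower, where 6.07% of all genes were lower at that p. Emx1, a homeobox factor of dorsal telencephalic progenitors, was at 56.9 and 65.7 CPM in Mboat7+/- replicates 1 and 2 and at 35.8 and 49.6 CPM in Mboat7-/- replicates 1 and 2. The genotypes did not overlap, and replicate 1 was the lower Mboat7-/- cortex (log2 fold change -0.53, SE 0.15, adjusted p = 0.207, edgeR). Lhx2, the LIM-homeobox factor that keeps cortical progenitors from hem fate, was at 443 and 475 CPM in Mboat7+/- and at 331 and 420 CPM in Mboat7-/- cortices. Again the lower Mboat7-/- cortex was replicate 1, while replicate 2 was nearer to the controls (-0.29, SE 0.10, adjusted p = 0.263). Without Mboat7-/- replicate 1 the log2 fold change was -0.31 for Emx1 and -0.13 for Lhx2, and without replicate 2 it was -0.47 for Lhx2. Dmrta2, a doublesex-related factor of the medial cortex, was at 154 and 160 CPM in Mboat7+/- and at 126 and 128 CPM in Mboat7-/- cortices. Here the cortices of each genotype lay close together, with the Mboat7-/- level lower by a log2 fold change of -0.30 (SE 0.07, adjusted p = 0.174).

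The remaining cortical factors gave smaller or less even differences. Dmrt3, a relative of Dmrta2, was at 34.3 and 37.0 CPM in Mboat7+/- and at 24.5 and 33.0 CPM in Mboat7-/- cortices, without overlap (-0.32, SE 0.15, adjusted p = 0.372, edgeR), and came to -0.11 without Mboat7-/- replicate 1 and to -0.54 without replicate 2. Otx1 (118 and 127 against 102 and 116 CPM) and Msx2 (31.3 and 32.9 against 21.8 and 31.0 CPM) were likewise lower without overlap. Emx2, Nr2f1, Dmrta1, Otx2, Lmx1a, Msx1 and Sp8 had overlapping genotypes and log2 fold changes between -0.22 and -0.01. Nr2f2 was the one factor above 0, at 0.04. Compared within each replicate number, 8 of the 14 factors were lower in the Mboat7-/- cortex in both pairs and none was higher in both, against 31.6% and 30.8% of all genes. In 12 of the 14, Mboat7-/- replicate 1 lay below replicate 2 (47.9% of all genes). The controls had the same order in 10 of the 14 (50.3% of all genes).

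The dorsal telencephalon marker list, which holds none of the 44 genes, moved with these factors at E11.5: its summed level was 1410 and 1501 CPM in Mboat7+/- and 1127 and 1384 CPM in Mboat7-/- cortices, and 5 of its 9 genes were lower without overlap. In the other direction, 11 of 15 mesenchyme and meninges markers and 5 of 10 surface ectoderm markers were higher without overlap. Over all genes tested at E11.5, 23.1% were higher and 23.3% lower without overlap. Mesenchyme markers summed to 1883 and 1826 CPM in Mboat7+/- and 2228 and 2317 CPM in Mboat7-/- cortices, and surface ectoderm markers to 102 and 89.4 against 135 and 128 CPM. Blood markers summed to 5817 and 4443 CPM against 2842 and 3195 CPM, and endothelium markers to 305 and 289 against 332 and 323 CPM. The ventral telencephalon and choroid plexus lists were also lower, with values given beside the genes they go with. The part of tissue composition in the differences of the patterning genes was not tested, and in bulk cortex fewer cells of a type and less RNA per cell cannot be told apart.

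**Figure D3:**
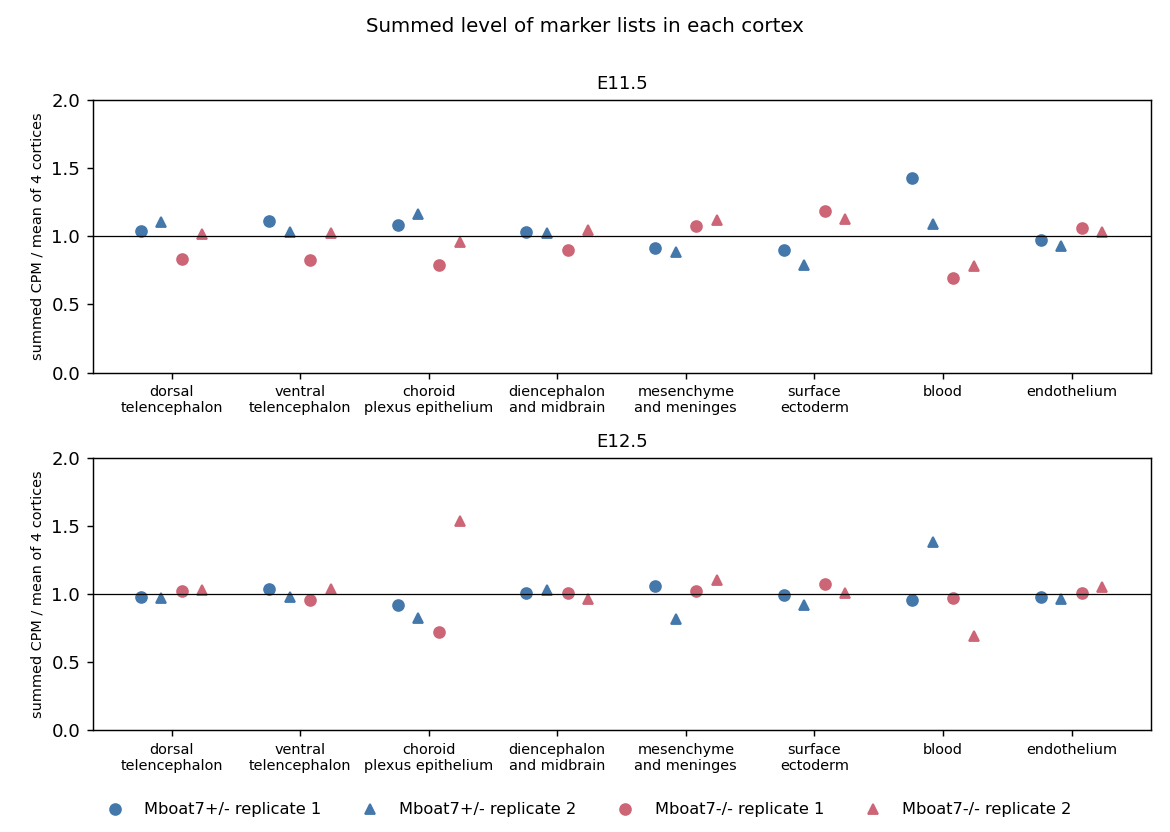
Summed CPM of 8 marker lists in each cortex, divided by the mean of the 4 cortices of its stage (line at 1), at E11.5 (top) and E12.5 (bottom). At E11.5 both Mboat7-/- cortices lie below the controls for dorsal and ventral telencephalon, choroid plexus and blood and above them for mesenchyme, surface ectoderm and endothelium; at E12.5 the choroid plexus list is highest in Mboat7-/- replicate 2.

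All 5 SHH pathway genes had a log2 fold change above 0 at E11.5 (median 0.31), as had 48.9% of all genes. Ptch1, Gli1 and Gli3 had an unadjusted p under 0.05, where 8.03% of all genes were higher at that p. Ptch1, the SHH receptor and itself a target of the pathway, was at 58.8 and 46.0 CPM in Mboat7+/- and at 93.2 and 71.3 CPM in Mboat7-/- cortices. The genotypes did not overlap, and the Mboat7-/- cortex was 1.59-fold the control of the same number in replicate 1 and 1.55-fold in replicate 2 (log2 fold change 0.66, SE 0.15, adjusted p = 0.174, edgeR). Gli1, the transcription factor most used as a readout of SHH signalling, was at 62.2 and 48.9 CPM in Mboat7+/- and at 77.7 and 61.1 CPM in Mboat7-/- cortices. Its genotypes overlapped, since Mboat7+/- replicate 1 lay above Mboat7-/- replicate 2, yet the ratio within each number was 1.25 in both (0.33, SE 0.14, adjusted p = 0.344). Gli3 was at 201 and 197 CPM in Mboat7+/- and at 215 and 226 CPM in Mboat7-/- cortices, a small difference without overlap (0.15, SE 0.06, adjusted p = 0.342) that came to 0.03 after correction for transcript length and GC. Gli2, an activator in the same family, was at 93.6 and 85.4 against 95.2 and 98.2 CPM (0.11).

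Shh itself differed between the Mboat7-/- cortices at E11.5 more than between the genotypes. It was at 32.2 and 25.4 CPM in Mboat7+/- and at 48.1 and 22.4 CPM in Mboat7-/- cortices, so that Mboat7-/- cortices held both the highest and the lowest value (0.31, SE 0.29, adjusted p = 0.665, edgeR). Among marker genes that were picked out here after their values were seen, Six6 was at 8.27 and 8.08 CPM in Mboat7+/- and at 26.1 and 2.67 CPM in Mboat7-/- cortices, and Pax2 at 2.49 and 4.27 against 9.51 and 1.42 CPM. Both are factors of the eye and optic stalk region, Six6 also of the hypothalamus, and both were highest in the cortex that was highest in Shh. The diencephalon and midbrain list that holds them did not follow: it summed to 158 and 157 CPM in Mboat7+/- and to 138 and 160 CPM in Mboat7-/- cortices, and 8 of its 13 tested genes had a log2 fold change below 0 (median -0.21). Their part in the SHH pathway values was not tested. Without Mboat7-/- replicate 1, the log2 fold change of Ptch1 was 0.45 and that of Gli1 0.14. Without the female control it was 0.84 for Ptch1 and 0.51 for Gli1, and without the other control it was 0.49 and 0.17.

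**Figure D4:**
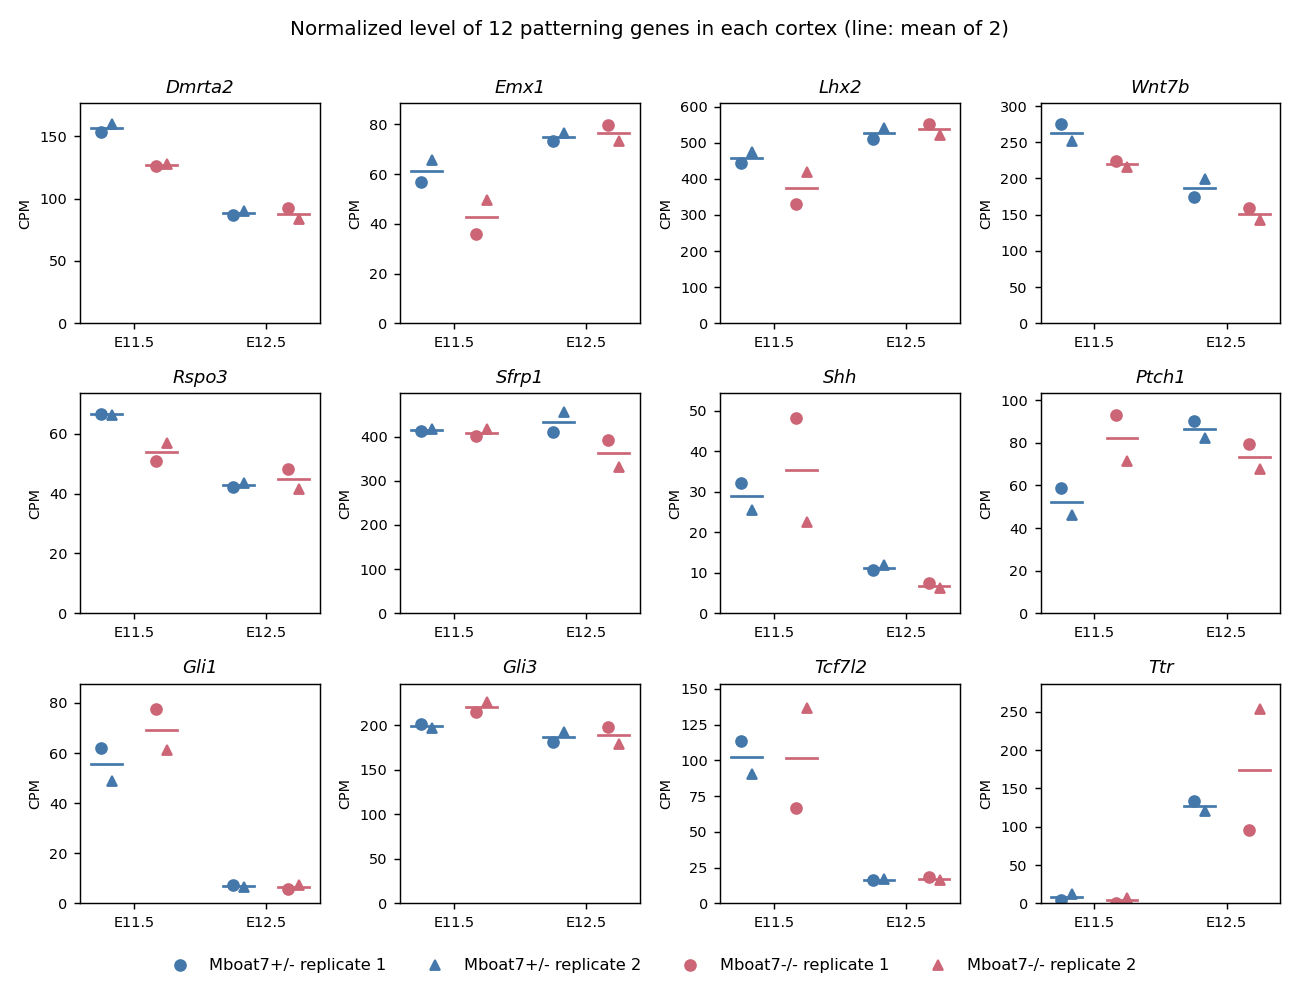
CPM of selected patterning genes in each cortex (circles, replicate 1; triangles, replicate 2; blue, Mboat7+/-; red, Mboat7-/-), with a line at the mean of 2. Ptch1 lies higher in both Mboat7-/- cortices at E11.5, at 93.2 and 71.3 CPM, and lower in both at E12.5, at 79.5 and 67.6 CPM, while Wnt7b lies lower in both at each stage.

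Among the 11 WNT genes at E11.5, the median log2 fold change was -0.04, and Wnt7b and Rspo3 were the ones with an unadjusted p under 0.05. Wnt7b, a ligand made by cortical progenitors and neurons, was at 275 and 252 CPM in Mboat7+/- and at 224 and 216 CPM in Mboat7-/- cortices, without overlap (-0.26, SE 0.07, adjusted p = 0.187, edgeR). Rspo3, a secreted amplifier of WNT signalling made by the hem, was at 66.7 and 66.4 CPM in Mboat7+/- and at 50.7 and 56.8 CPM in Mboat7-/- cortices, also without overlap (-0.31, SE 0.09, adjusted p = 0.212). The targets of the pathway lay near 0. Axin2, the feedback inhibitor that WNT signalling induces, was at 129 and 126 against 115 and 133 CPM, and Lef1, a nuclear partner of beta-catenin, at 66.0 and 67.0 against 64.1 and 64.5 CPM. Of the inhibitors, Sfrp1 was even across cortices (414 and 418 against 401 and 416 CPM, log2 fold change -0.02), whereas Sfrp2 parted the Mboat7-/- cortices, at 108 and 111 against 148 and 78.7 CPM. The hem ligands Wnt2b, Wnt3a, Wnt5a and Wnt8b lay between -0.14 and 0.11, and Wnt7a, at 25.5 and 34.9 against 22.1 and 29.0 CPM, had overlapping genotypes (-0.26).

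The BMP and FGF genes gave no unadjusted p under 0.05 at E11.5. Ttr had the largest fold change of the 44 genes and also the largest SE. It was at 3.88 and 11.9 CPM in Mboat7+/- and at 0.57 and 7.0 CPM in Mboat7-/- cortices, overlapping and 21.1-fold apart between the highest and lowest cortex (-1.20, SE 0.74, adjusted p = 0.501, edgeR). Its log2 fold change was -3.82 without Mboat7-/- replicate 2, -0.20 without Mboat7-/- replicate 1 and -0.10 without Mboat7+/- replicate 2. The choroid plexus marker list holds 2 of the 44 genes. It summed to 96.2 and 103 CPM in Mboat7+/- and to 70.2 and 84.7 CPM in Mboat7-/- cortices. All 8 tested genes were below 0 (median -0.53). Of these, 4 were lower without overlap (23.3% of all genes) and 3 lower at an unadjusted p under 0.05 (6.07%). The part of this list in the values of Ttr was not tested. The ligand Bmp7 (26.4 and 26.9 against 29.4 and 24.7 CPM) and Bmp4 (17.8 and 22.6 against 21.0 and 17.9 CPM) overlapped. Fgf15, the most abundant FGF ligand here, was at 66.4 and 57.3 against 59.5 and 58.7 CPM, and Fgf8, the organizer signal, at 11 and 9.97 against 11.3 and 7.57 CPM. Of the 8 FGF genes, Etv5 (40.3 and 43.3 against 45.8 and 45.3 CPM) was higher without overlap and Fgf17 (28 and 28.4 against 27.0 and 25.7 CPM) lower. All 8 were higher in Mboat7-/- replicate 1 than in replicate 2, where 52.1% of all genes were. The controls had the same order for 6 of the 8 (49.7% of all genes). Of the diencephalic genes, Tcf7l2 varied most, at 114 and 90.7 CPM in Mboat7+/- and at 66.8 and 136 CPM in Mboat7-/- cortices. Barhl2 was likewise lowest in Mboat7-/- replicate 1 (46.6 and 45.7 against 32.6 and 46.8 CPM), and Irx3 was at 47.6 and 42.6 against 55.1 and 46.4 CPM.

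The calls at E11.5 depended on how the spread was modelled. The batch field of the labels holds the same number as the replicate, and with it as a replicate block 5 genes passed an FDR of 0.05 (edgeR): Ptch1 higher (adjusted p = 0.00125), and Emx1 (0.00893), Lhx2 (0.0226), Dmrta2 (0.0268) and Wnt7b (0.0358) lower. The same fit called 3.38% of all genes. After correction for transcript length and GC in that fit, no gene of the 44 or of all genes was called (0.0%), with log2 fold changes of 0.51 for Ptch1, against 0.65 before the correction, and -0.53 for Emx1. DESeq2 called Ptch1 (adjusted p = 0.00482), Dmrta2 (0.0354) and Emx1 (0.0487), and 1.12% of all genes. With the single remaining Mboat7-/- cortex assumed to vary like the controls, leaving out replicate 2 raised the calls to 14 of the 44 genes and to 7.72% of all genes, and leaving out replicate 1 left 1 call, Sfrp2 (0.334% of all genes). Sfrp2 was called in both cases but in opposite directions, lower without replicate 1 (-0.47) and higher without replicate 2 (0.44).

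**Figure D5:**
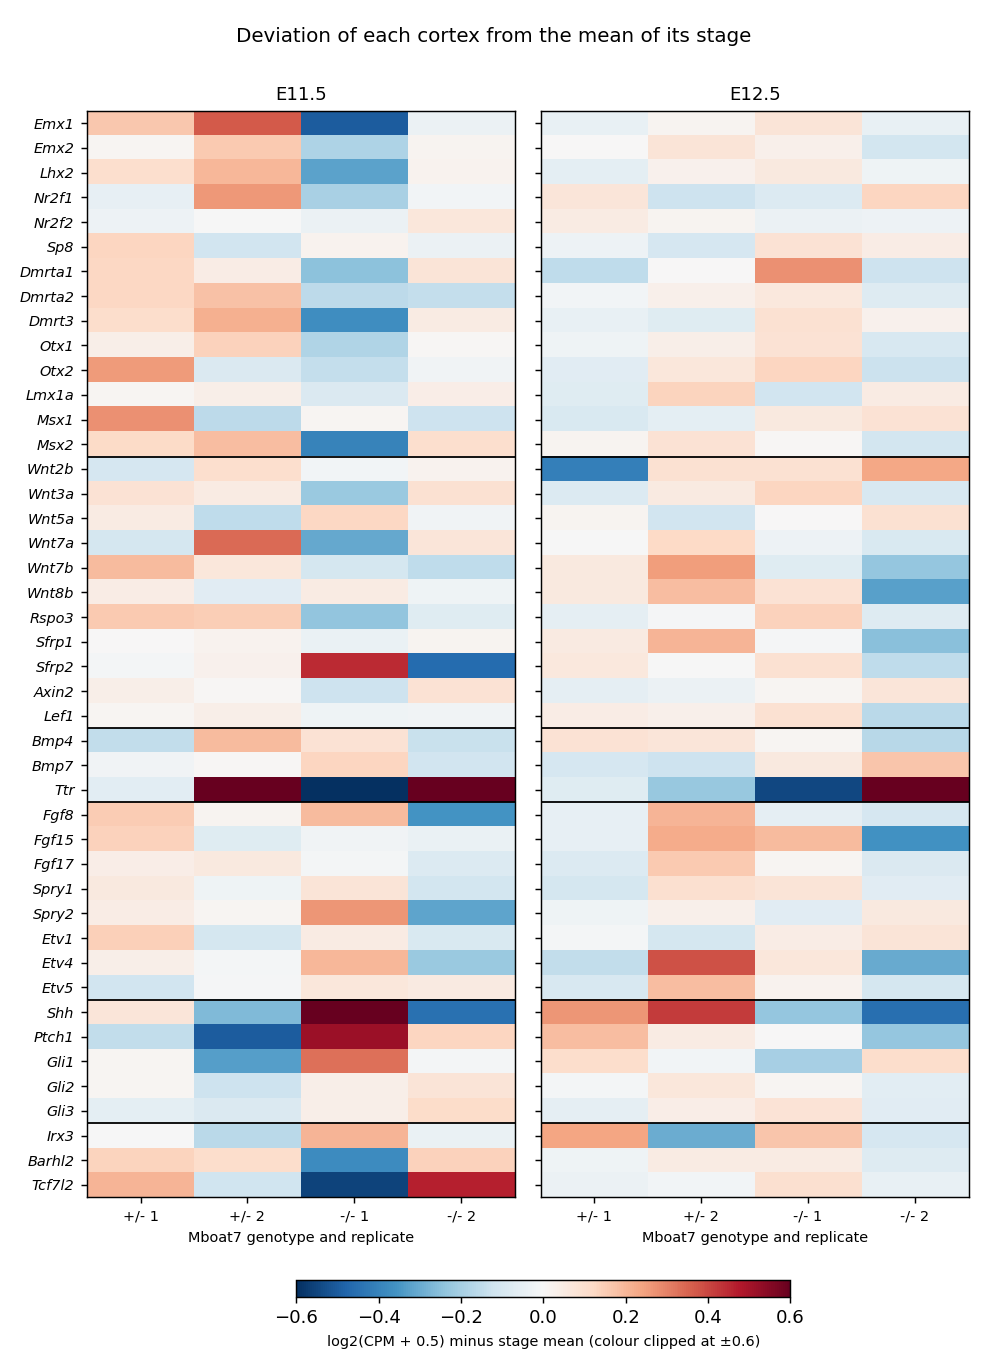
Deviation of each cortex from the mean of its stage, as log2(CPM + 0.5), for each patterning gene (rows, parted by role), with red above and blue below the mean and the colour clipped at 0.6. At E11.5 Mboat7-/- replicate 1 is the lowest cortex for 21 of the 44 genes, and at E12.5 Mboat7-/- replicate 2 for 26.

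A single Mboat7-/- cortex held many of the extremes at each stage. Mboat7-/- replicate 1 was the lowest of the 4 E11.5 cortices for 21 of the 44 genes (47.7%, against 28.8% of all genes) and the highest for 13, against 29.6%. At E12.5, Mboat7-/- replicate 2 was the lowest for 26 genes (59.1%, against 30.6% of all genes), and the control replicate 2 was the highest for 16 (30.1% of all genes). Mboat7-/- replicate 1 lay above replicate 2 for 32 of the 44 genes at E12.5, against 49.0% of all genes.

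At E12.5 the fold changes of the 44 genes fell on both sides of 0. Their median log2 fold change was -0.01, with 20 genes above 0 and 24 below (51.2% and 48.8% of all genes), and none passed an FDR of 0.05, where 3 of 16326 genes did (0.0184%). An unadjusted p under 0.05 was reached by 3 genes, all lower in Mboat7-/- cortices, against 4.23% of all genes (2.85% higher, 1.38% lower). Both Mboat7-/- cortices lay above both controls for 6 genes and below them for 9, against 16.9% and 15.2% of all genes. The smallest adjusted p was 0.819 (Shh, edgeR). DESeq2 called none of the 44 genes at this stage (0.0613% of all genes), nor did the fit with the replicate block (0.196%).

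Shh showed the largest fold change at E12.5. It was at 10.6 and 11.9 CPM in Mboat7+/- and at 7.38 and 6.27 CPM in Mboat7-/- cortices. The genotypes did not overlap, and the Mboat7-/- level was 0.70-fold and 0.53-fold the control of the same number (log2 fold change -0.72, SE 0.18, adjusted p = 0.819, edgeR). Ptch1 was also lower without overlap, at 90.3 and 82.2 against 79.5 and 67.6 CPM (-0.23, SE 0.11), but did not reach an unadjusted p under 0.05. Gli1, at 7.30 and 6.67 against 5.82 and 7.29 CPM, and Gli3, at 181 and 193 against 198 and 179 CPM, overlapped. With the remaining Mboat7-/- cortex assumed to vary like the controls, Shh had an adjusted p of 0.0202 (edgeR) and a log2 fold change of -0.85 without Mboat7-/- replicate 1, where 1.89% of all genes were called, and an adjusted p of 0.741 and a log2 fold change of -0.61 without replicate 2.

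Wnt7b and Sfrp1 were the other genes with an unadjusted p under 0.05 at E12.5. Wnt7b was at 174 and 199 CPM in Mboat7+/- and at 159 and 143 CPM in Mboat7-/- cortices (-0.31, SE 0.10, adjusted p = 0.954, edgeR), lower in all Mboat7-/- cortices at both stages. Sfrp1 was at 410 and 455 CPM in Mboat7+/- and at 393 and 332 CPM in Mboat7-/- cortices (-0.25, SE 0.11, adjusted p = 0.954). The genotypes did not overlap, and Mboat7-/- replicate 2 lay farther from the controls than replicate 1. Wnt2b, a hem ligand, was at 6.73 and 9.73 against 9.73 and 10.8 CPM (0.31, SE 0.20), and Wnt8b, another, at 48.3 and 52.8 against 49.2 and 36.9 CPM (-0.23). Rspo3, lower at E11.5, was at 42.1 and 43.5 against 48.2 and 41.4 CPM.

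The cortical factors had a median log2 fold change of 0.02 at E12.5, and Emx1, Lhx2 and Dmrta2 overlapped the controls. Emx1 was at 73.3 and 76.5 CPM in Mboat7+/- and at 79.7 and 73.2 CPM in Mboat7-/- cortices, Lhx2 at 511 and 542 against 553 and 523 CPM, and Dmrta2 at 87.0 and 90.1 against 92.1 and 83.5 CPM. Dmrt3, at 31.9 and 31.3 against 35.2 and 33.6 CPM, was higher without overlap (0.12, SE 0.10). Sp8 and Msx1 were also higher without overlap (0.13 and 0.15), and Nr2f2 and, as at E11.5, Msx2 lower (-0.07 and -0.11). The dorsal telencephalon markers summed to 1474 and 1468 CPM in Mboat7+/- and to 1544 and 1550 CPM in Mboat7-/- cortices at this stage.

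Ttr was again set by single cortices at E12.5. It was at 134 and 120 CPM in Mboat7+/- and at 96.4 and 253 CPM in Mboat7-/- cortices, so that the Mboat7-/- cortices held both extremes (0.46, SE 0.31, adjusted p = 0.954, edgeR). Clic6 and Folr1, choroid plexus markers chosen after their values were seen, were ordered likewise. Clic6 was at 26.1 and 24.3 against 21.1 and 36.6 CPM, and Folr1 at 3.51 and 3.06 against 2.95 and 4.55 CPM. Msx1, of the same list, was instead higher in both Mboat7-/- cortices. The whole list, Ttr included, summed to 223 and 199 against 174 and 372 CPM. All 9 tested genes were above 0 (median 0.35), and 1 was higher without overlap (16.9% of all genes). Leaving out Mboat7-/- replicate 1 gave Ttr a log2 fold change of 0.99, and leaving out replicate 2 turned it to -0.40, so 1 cortex decided its direction. Bmp7 was higher without overlap, at 21.0 and 20.6 against 23.4 and 25.3 CPM (0.23, SE 0.12). Of the FGF genes, Etv4 was at 5.96 and 8.80 against 6.99 and 5.30 CPM (-0.27, SE 0.24) and Etv5 at 46.4 and 56.6 against 50.4 and 46.1 CPM. Fgf8, at 1.44 and 1.81 against 1.43 and 1.37 CPM, was lower without overlap and Etv1 higher (0.12). The control replicate 2 was above replicate 1 for 7 of the 8 FGF genes (49.4% of all genes). Tcf7l2 was even across these cortices, at 16.6 and 16.8 against 18.2 and 16.5 CPM.

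Set side by side, the log2 fold changes of the stages, which share no cortex, had the same sign for 43.2% of the 44 genes and for 58.7% of the 13650 genes tested at both. They were below 0 at both stages for 15 genes, above 0 at both for 4, below 0 at E11.5 alone for 16 and above 0 at E11.5 alone for 9. In a fit of genotype over both stages no gene was called of the 44 or of all 14989 tested (0.0%). An unadjusted p under 0.05 was reached by Wnt7b (-0.28, SE 0.06, adjusted p = 0.275, edgeR) and Dmrta2 (-0.16, SE 0.07, adjusted p = 0.370), both below 0, against 12.3% of all genes in either direction and 4.97% below 0. With DESeq2 the adjusted p of Wnt7b was 0.0426, where 0.0667% of all genes were called.

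The difference between the stages in the effect of genotype was tested as an interaction, and no gene passed an FDR of 0.05 (0.0% of all genes, edgeR). An unadjusted p under 0.05 was reached by 6 of the 44 genes, 4 above 0 and 2 below, against 5.44% of all genes (2.62% and 2.82%). For Ptch1 the effect at E12.5 was lower than that at E11.5 by a log2 difference of -0.89 (SE 0.20, adjusted p = 0.538), and for Shh by -1.03 (SE 0.46, adjusted p = 0.888). It was higher for Emx1 by 0.56 (SE 0.19, adjusted p = 0.878), for Dmrt3 by 0.44, for Rspo3 by 0.37 and for Dmrta2 by 0.29. DESeq2 called Ptch1 in this test (adjusted p = 0.0309, 0.0734% of all genes). Without the E11.5 Mboat7-/- replicate 2 edgeR called Ptch1 (0.0191), Shh (0.0191) and Emx1 (0.0340), and 0.574% of all genes. Without replicate 1 of the same group none of these was called, and the log2 difference was -0.69 for Ptch1, -0.38 for Shh and 0.32 for Emx1.

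Other genes of the same pathways, taken from lists that hold none of the 44, gave no call at either stage at an FDR of 0.05 (edgeR). At E11.5, 9 of 48 further WNT pathway genes had an unadjusted p under 0.05 and were higher in Mboat7-/- cortices, and 1 was lower. The background for this and the next lists was 8.03% of all genes higher and 6.07% lower. The lists were counted without the correction for transcript length and GC. With it, 9.99% of all genes had an unadjusted p under 0.05 in either direction, against 14.1% without it (edgeR). Among the higher ones were the receptors Fzd4 (6.14 and 5.18 against 18.0 and 8.75 CPM, log2 fold change 1.27) and Lrp6 (0.26) and the beta-catenin destruction scaffold Apc (0.22). In the BMP list 7 of 28 were higher and 1 lower, the type II receptor Bmpr2 (9.65 and 9.22 against 13.9 and 16.9 CPM, 0.70) and the type I receptor Bmpr1a (0.28) among the former. The lower one was Id4 (301 and 317 against 243 and 280 CPM, -0.24), which also stands in the list of further forebrain factors below. In the FGF list 4 of 22 were higher and 1 lower. They included the ligand Fgf10, at 1.06 and 0.68 against 7.92 and 2.02 CPM (2.59), and the pathway inhibitor Spred1 (0.32). Of 16 SHH pathway genes 1 was higher, the ciliary receptor Gpr161, a negative regulator (0.54), and 1 lower, the SHH co-receptor Gas1 (263 and 267 against 217 and 236 CPM, -0.23).

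Among 39 further forebrain factors tested at E11.5, 2 were higher and 5 lower at an unadjusted p under 0.05. Pax6, the progenitor factor of the dorsal telencephalon, was lower (152 and 156 against 120 and 138 CPM, -0.26), and so was Dlx2, a ventral factor (132 and 127 against 83.4 and 109 CPM, -0.43). Dorsal and ventral factors thus both stood among the lower ones, and the ventral telencephalon markers summed to 667 and 622 CPM in Mboat7+/- and 498 and 618 CPM in Mboat7-/- cortices. At E12.5 no gene of the WNT, BMP, FGF and SHH lists reached an unadjusted p under 0.05 (45, 27, 21 and 15 tested). Of 32 further forebrain factors 4 were higher, among them the nuclear factors Nfib (256 and 196 against 266 and 334 CPM, 0.41) and Nfix (166 and 145 against 172 and 241 CPM, 0.41), and 1 was lower, against 2.85% and 1.38% of all genes.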

How the data were processed

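RNA of 8 cortices was poly(A)-selected and sequenced from directional libraries. The authors deposited raw read counts per gene, without normalization, by symbol at E11.5 and by Ensembl identifier at E12.5. The submitters' processing notes name HISAT2, Subread, mm10 and GRCm39. Versions and roles are not given in the sources used here, so the tables may rest on different builds and annotations. Symbols were matched through reference tables for rows holding 99.7% (E11.5) and 99.0% (E12.5) of the counts, and 22809 genes were paired between tables.

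The genes, lists and tests were chosen with earlier results of these data known. A separate fit was made per stage in R 4.3.3 with the quasi-likelihood test of edgeR 4.0.16, after TMM scaling and filterByExpr at a minimum count of 10, and p-values were adjusted over all genes by Benjamini-Hochberg. All 44 genes passed this filter at both stages. A fit over both stages had stage as a term, and another its interaction with genotype. The study names no test for these counts. CPM used normalized library sizes, and levels per kb used exon lengths of a GENCODE annotation of GRCm38. Scripts were tested on simulated data.

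Genes were named by rule: an unadjusted p under 0.05 without overlap, the 5 largest fold changes, the most abundant gene per role, and up to 3 genes per pathway list. A few others were named after their values were seen. The study gives 2 embryos per genotype for these counts at each stage, so p-values measure the spread between embryos. Their litters are not given. No pair of cortices agreed within sampling noise (chi-square per degree of freedom 4.64 to 25.8). The labels have a batch field that holds the same number as the replicate, and the pairing rests on that field. Same-numbered cortices deviated together weakly at E11.5 (r = 0.083) and in opposite directions at E12.5 (r = -0.20). Alternatives were RLE scaling, other filters, DESeq2 1.42.0, the replicate block and leaving out each cortex. Removal of a length and GC trend, the earlier form of the quasi-likelihood test and a crossed pairing were added after seeing the data. The floor of 3 counts covers counting error only.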

Additional observations from a re-analysis of the deposited data

How the results depend on the processing

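Precision was limited by 2 cortices per genotype and, for genes such as Fgf8 (30 to 39 counts per cortex at E12.5) and Irx3 (31 to 50), by depth. No gene of the 44 was called (FDR under 0.05, edgeR) at E11.5, E12.5 or in either fit over both stages. At E11.5 the count of calls was 3 with DESeq2 and 5 with the replicate block, where 14 genes had an unadjusted p under 0.05, and with a length and GC trend removed the median log2 fold change was -0.0396. The joint fits gave 1 call each with DESeq2, for genotype and for the interaction. The replicate block changed no other call. The crossed pairing at E12.5 gave 3 calls and 7 genes with an unadjusted p under 0.05, against 158 calls and 12.7% of all 16326 genes. With single cortices left out, the number of calls was 0 to 14 at E11.5, 0 to 2 at E12.5 and 0 to 3 for the interaction, and stayed at 0 for genotype over both stages. The counts of unadjusted p under 0.05 were 5 to 20 and 3 to 7 at the respective stages, and the medians lay between -0.0718 and -0.0245 and between -0.0929 and 0.0536.

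Removing the length and GC trend at E12.5 gave Gli3 -0.0439, or -0.0454 with the replicate block, and Tcf7l2 -0.00173, or -0.00382 with the block. With single cortices left out, the log2 fold change at E11.5 ran from -0.0523 to 0.00286 for Sfrp1, -0.110 to 0.137 for Bmp7, -0.161 to 0.0465 for Fgf15 and -0.613 to 0.419 for Tcf7l2. At E12.5 it ran from -0.0165 to 0.0733 for Lhx2, -0.400 to 0.986 for Ttr, -0.517 to 0.0452 for Etv4, -0.230 to 0.0553 for Etv5, -0.0688 to 0.0888 for Gli3 and -0.0222 to 0.127 for Tcf7l2. Most of these fold changes lay near 0 with all cortices, but those of Ttr and Etv4 at E12.5 did not. The cause was not tested.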
